A study of Mus musculus with 12 samples.

Results

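Macrophages grown from the bone marrow of Ptprz1 knockout (KO) and wild-type (WT) mice were compared after 24 h with 100 ng/mL LPS and 10 ng/mL IFNγ, over 12889 autosomal genes that passed a filter on low counts, of 47874 autosomal genes and 55891 genes in all in the deposited table. The comparison takes 4 of the 12 RNA sequencing libraries of the series, 2 of each genotype, chosen by the genotype and treatment in their titles. Cells of both genotypes had first spent 6 days in 10 ng/mL M-CSF, the cytokine that turns marrow progenitors into macrophages, and the other libraries came from untreated cells (control) or cells given 20 ng/mL IL-4 for 24 h. The genotype label of the KO group is PTPRZ_KO, the titles of WT libraries begin with B6, and the strain label B6.129-Ptprz1tm1Nmo stands on every library, WT included. The labels give neither age nor sex and do not tie the libraries to separate mice or cultures, so a p-value here reflects only how far these libraries spread, and that spread may be technical.

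Ptprz1 encodes a receptor-type tyrosine phosphatase of the cell surface. It is best known in glial cells, where it binds the growth factors pleiotrophin and midkine and the adhesion protein contactin 1, and where ligand binding lowers its removal of phosphate from its substrates. LPS acts through the receptor TLR4 and IFNγ through its own receptor and JAK kinases, and together they drive macrophages to make nitric oxide, IL-12, interferon-induced GTPases and chemokines. The series sets this comparison in the context of macrophage-mediated kidney injury.

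Levels below are in CPM, which are counts scaled to a common library size by edgeR's TMM factors, and where 4 levels are listed they are KO libraries 1 and 2 and then WT libraries 1 and 2. Total counts were 13665607 in KO library 2 and 17732789 to 18235634 in the other 3 LPS+IFNγ libraries. Ptprz1 had 0 counts in all 4, WT included, which allows up to 0.203 to 0.290 CPM (3 counts, counting error only), so these libraries do not check the knockout by its transcript. The macrophage genes Adgre1 (F4/80), Csf1r (the M-CSF receptor) and Cd68 were each above 361 CPM in these 4 libraries, and Nos2, which makes nitric oxide and had at most 0.138 CPM in control libraries, was at 4790 to 5782 CPM. Xist was present in WT libraries only and Y-linked transcripts in KO libraries only, so that sex and genotype cannot be told apart in any value below.

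KO library 2 stood apart from the other 3 LPS+IFNγ libraries. It had 225 autosomal genes at or above 5 CPM and over 2 times the highest of the other 3, against 3, 2 and 6 such genes for KO library 1, WT library 1 and WT library 2. It also had 86 genes under 1/2 of the lowest of the other 3, against 2, 51 and 4. WT library 1, with the 51, thus also lay apart on its low side. Of genes at or above 20 CPM in the other 3, Col5a2, Cald1 and Col3a1 were furthest below them in WT library 1. The median absolute difference between the KO libraries was 0.295 on the log2 scale, and that between the WT libraries was 0.142. Results below are therefore given with each KO library's own level, and with that library left out where this changed a call.

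Of the 12889 autosomal genes, 3 (0.0233%) passed edgeR's two-sided quasi-likelihood test with Benjamini-Hochberg adjustment over all genes tested. Cndp2 and Gdf3 were lower in KO macrophages and Rab4a was higher. That is 1 higher (0.00776%) and 2 lower (0.0155%). At an unadjusted p below 0.05 there were 1053 genes (8.17%), 624 higher (4.84%) and 429 lower (3.33%). The median log2 fold change over all autosomal genes was 0.01, and 51.6% were positive. By level alone, both KO libraries lay above both WT libraries for 19.7% of genes and below them for 19.4%.

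Cndp2, a cytosolic dipeptidase that splits small dipeptides such as cysteinylglycine (chromosome 18), had 141 and 163 CPM in the KO libraries and 1328 and 1320 CPM in the WT libraries. Every WT library was far above every KO library, with the libraries of a genotype close together. Its level fell 8.72-fold, with a WT mean of 1324 ± 6.01 CPM and a KO mean of 152 ± 15 CPM (SD, n = 2 each), and the log2 fold change was −3.12 ± 0.17 (SE, adjusted p = 1.06e-04, edgeR). LPS+IFNγ, which changed 54.5% of autosomal genes in WT and 53.5% in KO, raised Cndp2 in both genotypes, by 1.57 in WT and 1.31 in KO on the log2 scale. The KO against WT difference was −2.86 in control and −2.66 after IL-4, and its change with LPS+IFNγ was −0.26 ± 0.23 against control (adjusted p = 0.991) and −0.47 ± 0.23 against IL-4 (adjusted p = 0.930).

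Gdf3 (chromosome 6) encodes a secreted TGF-β superfamily factor known from pluripotent cells and adipose tissue macrophages. It had 3.17 and 3.19 CPM in KO and 9.26 and 9.22 CPM in WT libraries. The genotypes did not overlap, and within a genotype the libraries were nearly equal. KO was 2.90-fold lower, with a log2 fold change of −1.54 ± 0.15 (edgeR adjusted p = 0.00323). LPS+IFNγ lowered Gdf3 by 2.36 in WT and 2.76 in KO on the log2 scale, so the stimulated KO cells held the lowest level of the 6 groups. Fitted on the 4 LPS+IFNγ libraries alone, Gdf3 and Rab4a did not pass (adjusted p = 0.790 for both), and Cndp2 did.

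Rab4a, a small GTPase of early endosomes that returns receptors to the cell surface (chromosome 8), had 3.04 and 3.87 CPM in KO and 0.613 and 0.542 CPM in WT libraries. KO was 5.90-fold higher at a low level, with a log2 fold change of 2.56 ± 0.29 (edgeR adjusted p = 0.0113). In WT cells LPS+IFNγ lowered Rab4a by 1.80 on the log2 scale (adjusted p = 5.15e-04), while in KO cells the difference was −0.43 (adjusted p = 0.164). The difference between these responses was 1.37 ± 0.37 and did not pass (adjusted p = 0.991). Leaving out KO library 2, WT library 1 or WT library 2 ended the call of Rab4a (adjusted p = 0.0647, 0.189 and 0.186).

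**Figure D1:**
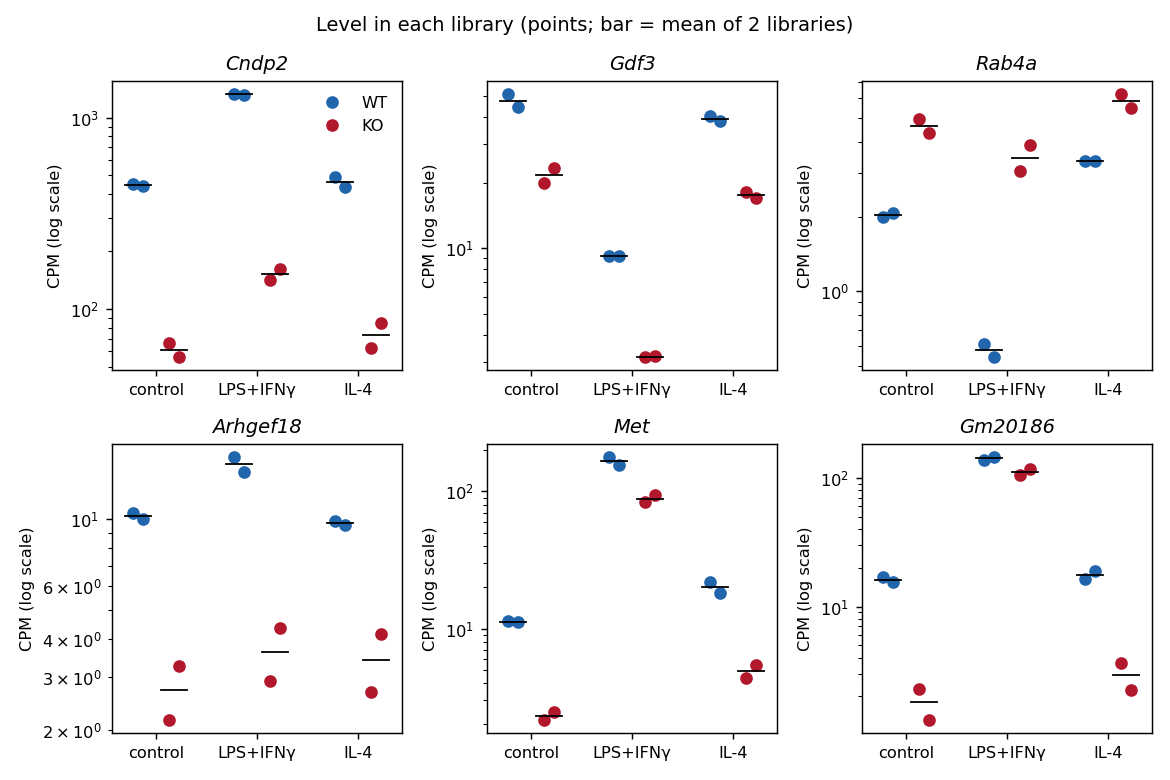
CPM (log axis) of 6 genes in each of the 12 libraries, by treatment, with WT libraries in blue, KO libraries in red and a bar at the mean of 2 libraries. After LPS+IFNγ the KO libraries of Cndp2, Gdf3, Arhgef18 and Met lie below the WT libraries and those of Rab4a above them, while Gm20186 has nearly met.

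**Figure D2:**
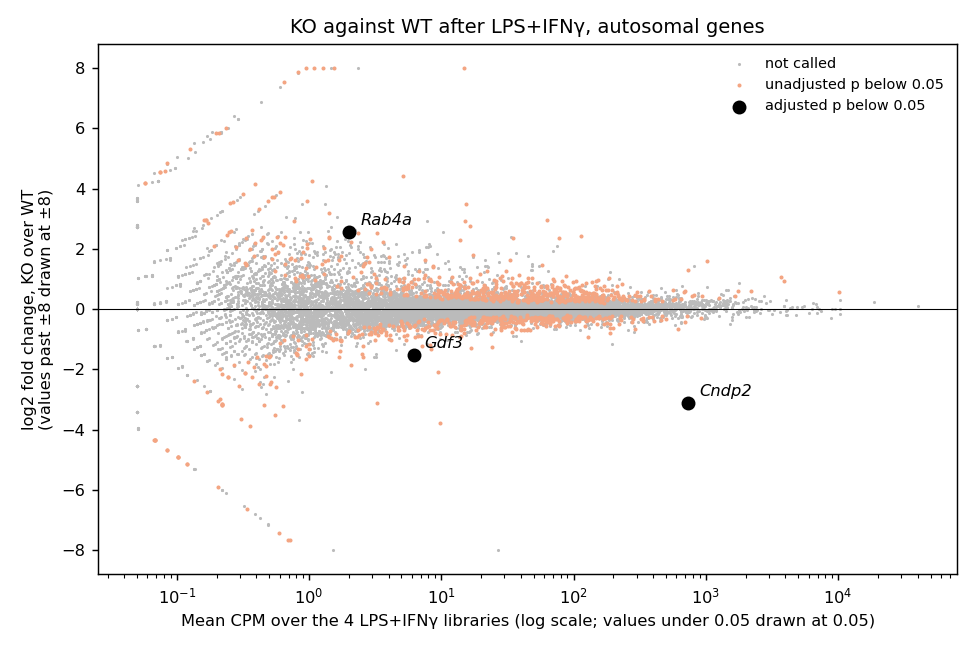
Log2 fold change of KO over WT against mean CPM of the 4 LPS+IFNγ libraries (log axis), 1 point per autosomal gene. The 3 genes that passed are in black, and those with an unadjusted p below 0.05 only are in orange.

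The next genes by p-value did not pass, and their values follow as measurements. Arhgef18, an exchange factor that activates RhoA (chromosome 8), had 2.90, 4.36, 16.1 and 14.3 CPM and a log2 fold change of −2.08 ± 0.29 (edgeR adjusted p = 0.0593). The genotypes did not overlap in any treatment: its difference was −1.91 in control (adjusted p = 0.0807) and −1.5 after IL-4 (adjusted p = 0.321). Tmem268, a transmembrane protein gene (chromosome 4), had 85.7, 90.5, 57.9 and 59.8 CPM, a log2 fold change of 0.58 ± 0.09 (adjusted p = 0.0754). In control and after IL-4 its KO against WT difference was −0.01 and −0.08. Zfp973, a zinc finger gene, had 0 counts in both KO libraries and 1.5 and 0.881 CPM in WT, at least 4.1-fold lower in KO (adjusted p = 0.0966).

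Among the genes that came next, lower levels in KO were measured for Ccne2, the cyclin E2 of S phase entry (1.01, 0.871, 2.38 and 2.64 CPM), and Eya1, a transcriptional cofactor that is itself a phosphatase (1.08, 0.678, 2.93 and 3.66 CPM). Clk1, a kinase of splicing factors, had 41.5, 30.7, 57.2 and 59.7 CPM. Adra1a, an α1 adrenergic receptor, had 11.7, 7.45, 17.4 and 19.2 CPM. All 4 had both KO libraries below both WT libraries, and their edgeR adjusted p ran from 0.0966 to 0.442.

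Higher levels in KO were measured for Smyd2, a lysine methyltransferase (6.82, 7.55, 4.36 and 3.86 CPM), and Snrpd2, a core protein of spliceosomal particles (16.7, 22.4, 10.9 and 9.76 CPM). Pycard, the adaptor ASC of inflammasomes, had 57.5, 56.9, 42.0 and 36.9 CPM, and Rxra, the partner of many nuclear receptors, had 89.7, 89.6, 69.8 and 62.0 CPM. For Rxra and Pycard the KO libraries were within 1 CPM of each other. Slc2a9, a urate transporter, had 30.9, 31.6, 18.7 and 20.3 CPM, and Adk, adenosine kinase, had 11.8, 11.2, 7.49 and 7.86 CPM. None of these 6 passed (edgeR adjusted p 0.144 to 0.539). DESeq2, run beside edgeR, called 22 autosomal genes, 8 higher and 14 lower, among them Arhgef18, Met, Tmem268, Zfp973, Eya1, Clk1, Adra1a, Snrpd2 and Rxra.

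Met, the receptor of hepatocyte growth factor (HGF), lies 5.30 Mb from Ptprz1 on chromosome 6 (GRCm38). It had 83.2, 93.6, 179 and 155 CPM after LPS+IFNγ, with both KO libraries below both WT libraries and a log2 fold change of −0.92 ± 0.13 (edgeR adjusted p = 0.0754). In control its difference was −2.27 and after IL-4 −2.04, both of which passed (adjusted p = 3.71e-04 and 4.32e-04). LPS+IFNγ raised Met by 3.89 in WT and 5.24 in KO on the log2 scale. The difference between the responses was 1.36 ± 0.21 (adjusted p = 0.562), and that against IL-4 was 1.12 ± 0.20 (adjusted p = 0.881).

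Gm20186, an uncharacterised noncoding transcript 4.03 Mb from Ptprz1, had 106, 118, 139 and 146 CPM after LPS+IFNγ. Its log2 fold change was −0.35 ± 0.20 (edgeR adjusted p = 0.672), where control had −3.15 (adjusted p = 8.17e-04) and IL-4 −2.59 (adjusted p = 0.00291). LPS+IFNγ raised it by 3.14 in WT and 5.94 in KO on the log2 scale. It had the smallest adjusted p of all autosomal genes for both changes of the KO effect, 2.80 ± 0.33 against control (adjusted p = 0.144) and 2.25 ± 0.32 against IL-4 (adjusted p = 0.673).

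No autosomal gene passed edgeR's test of the KO effect after LPS+IFNγ against that in control or against that after IL-4 (0.0% in each). At an unadjusted p below 0.05 there were 450 genes (3.49%) and 595 genes (4.62%), and DESeq2 called 5 in each, Met and Gm20186 in both. KO against WT called 5 autosomal genes in control (0.0388%) and 4 after IL-4 (0.031%). Neat1, the long RNA of nuclear paraspeckles, was lower in KO control cells (log2 fold change −1.24, adjusted p = 0.0403) and had 97.4, 110, 107 and 133 CPM after LPS+IFNγ (−0.21 ± 0.16, adjusted p = 0.743). Of 10 genes chosen because they were called somewhere in the series, 9 had a negative log2 fold change here. Over all autosomal genes 51.6% were positive. The 3 genes called in this comparison are among the 10, so the count was partly set by the choice and tests nothing. Besides those described, Btbd2, a BTB domain protein gene (11.4, 10.3, 18.5 and 15.8 CPM), and Eps8l1, an actin regulator (1.69, 1.36, 3.68 and 3.46 CPM), were lower in both KO libraries without passing (adjusted p = 0.564 for both).

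Around the targeted gene, 138 autosomal genes within 20 Mb of Ptprz1 were tested and 0 passed in edgeR. An unadjusted p below 0.05 was found for 10 higher and 8 lower, 13%, against 8.12% of all other autosomal genes. Chromosome 6 as a whole had 10.6%, as did chromosome 10, and the other autosomes had 5.58% to 9.51%.

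Genes tied to the phosphatase itself came next. Of 27 autosomal ligands and partners of PTPRZ, 19 were tested and 0 passed, with 10 positive and 9 negative log2 fold changes and a median of 0.03. Ncam1, an adhesion protein that binds PTPRZ, had 1.89, 3.19, 0 and 0.542 CPM, and Tnc, the matrix protein tenascin C, had 47.0, 90.6, 10.9 and 44.6 CPM. Both were higher in KO libraries than in WT libraries, by little in Tnc, where KO library 1 and WT library 2 nearly met. Tnc was among the 12 genes furthest below the other libraries in WT library 1, as were Col3a1 and Col1a1. The part of stromal RNA in its level was not tested. Lrp1, a scavenger receptor and midkine receptor, had 1561, 936, 1815 and 1737 CPM.

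The 24 other tyrosine phosphatases tested had a median of 0.09, with 16 positive, 2 higher and 1 lower at an unadjusted p below 0.05, and 0 that passed. Among all autosomal genes 51.6% were positive, with 4.84% higher and 3.33% lower at that p. Ptprc (CD45), the most abundant phosphatase of leukocytes, was at 707, 709, 734 and 718 CPM, and Ptpn6 (SHP-1) was at 575, 531, 547 and 521 CPM. Of 19 Src-family kinases and their regulators, among them known phosphatase substrates, 0 passed and the median was −0.0044. Lyn, an inhibitory and activating Src-family kinase of myeloid cells, had 899, 1243, 833 and 758 CPM (log2 fold change 0.43 ± 0.17, adjusted p = 0.595). Pag1, the adaptor that brings the inhibitor CSK to these kinases, had 88.2, 103, 73.6 and 69.0 CPM (0.42 ± 0.12, adjusted p = 0.564).

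The relatives of the 3 genes that passed were counted in the same way, where 51.6% of all autosomal genes were positive. Of 28 cytosolic and metallopeptidases tested, 1 passed, Cndp2 itself, and 20 were positive with a median of 0.10. Ide, the insulin-degrading enzyme, had 72.4, 114, 49.1 and 44.3 CPM (log2 fold change 0.99 ± 0.29, edgeR adjusted p = 0.564). Of 40 TGF-β family genes, Gdf3 alone passed and 26 were positive with a median of 0.16. Its list means were 0.07 and 0.51 above WT in KO libraries 1 and 2, and the WT libraries differed by 0.46. Tgfb1 itself had 168, 209, 145 and 132 CPM (adjusted p = 0.564).

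Of 29 endosomal RAB genes, Rab4a alone passed, and 20 were positive with a median of 0.11. With Rab4a included, the list means were 0.16 and 0.18 above WT in KO libraries 1 and 2. WT library 2 lay −0.015 from WT library 1. Rab32, a RAB of lysosome-related organelles, had 177, 308, 177 and 161 CPM, where KO library 2 was high and KO library 1 equalled WT library 1. In the HGF and MET pathway 0 of 17 passed. Hgf, the ligand of MET, was at 4.59, 2.71, 3.75 and 3.86 CPM. Spint1, an inhibitor of HGF activation, was at 2.03, 2.13, 0.341 and 0.678 CPM (log2 fold change 2.01 ± 0.59, adjusted p = 0.564), with both KO libraries above both WT libraries.

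Genes of the LPS+IFNγ response itself showed no member that passed in any list. Among 30 M1 effectors, 23 were positive, against 51.6% of all autosomal genes, with a median of 0.25. KO library 2 was the highest of the 4 libraries for 22 of the 30, and for 4838 of all 12889 autosomal genes. Its list mean was 0.54 above WT on the log2 scale, while that of KO library 1 was −0.045 from WT. Nos2 had 5123, 5782, 5711 and 4790 CPM, and the genotypes overlapped. Il12b, the shared subunit of IL-12 and IL-23, had 62.1, 421, 124 and 117 CPM, so that the KO libraries lay on either side of WT. Il6 was split in the same way, at 14.6, 126, 16.4 and 25.2 CPM. Edn1, endothelin 1, had 4.19, 14.7, 2.32 and 2.71 CPM, above WT in both KO libraries (log2 fold change 1.90 ± 0.92, edgeR adjusted p = 0.617).

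The 22 IFNγ-induced GTPases, which attack the membranes of vacuoles that hold microbes, had a median of 0.12, and this median joined opposite libraries. KO library 1 was the lowest of the 4 libraries for 21 of 22 genes and KO library 2 the highest for 21 of 22. Over all 12889 autosomal genes KO library 1 was the lowest for 2594 and KO library 2 the highest for 4838. The mean of the list lay 0.40 below WT in KO library 1 and 0.46 above it in KO library 2 on the log2 scale, while the WT libraries differed by 0.01. Gbp2 had 3435, 5477, 3803 and 3452 CPM, and Irgm1 had 577, 738, 645 and 591 CPM.

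Type I interferon-stimulated genes (39 tested, 26 positive, median 0.10) followed a like split, with the list mean 0.11 below WT in KO library 1 and 0.27 above it in KO library 2. Ifit1 was at 1892, 2704, 2359 and 2375 CPM. MHC class I genes were positive in 20 of 22 (median 0.13), but the list mean of KO library 1 was 0.00 from WT and that of KO library 2 was 0.30 above it. Psmb8, an immunoproteasome subunit, had 512, 828, 487 and 535 CPM. MHC class II genes ran the other way, with 10 of 12 negative (median −0.22) and list means of −0.01 and −0.49 in KO libraries 1 and 2. Cd74, the invariant chain, had 289, 173, 346 and 340 CPM, and H2-Aa had 35.8, 21.3, 42.6 and 46.6 CPM. Beside the counts of these lists, 51.6% of all autosomal genes were positive.

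Of 23 chemokine genes 15 were positive (median 0.26), with list means of −0.01 and 0.15 from WT in KO libraries 1 and 2, where the WT libraries themselves differed by 0.26. Cxcl9, which draws T cells and is induced by IFNγ, had 1473, 1534, 1328 and 1100 CPM (log2 fold change 0.31 ± 0.21, edgeR adjusted p = 0.707). Cxcl5, which draws neutrophils, had 4.46, 27.1, 2.18 and 8.67 CPM, and the genotypes overlapped. The 36 genes of the TLR and NF-κB pathway had a median of −0.01. In that list Tlr4, the LPS receptor, had 121, 71.8, 125 and 124 CPM, and Tlr9, the receptor of unmethylated CpG DNA, had 186, 69.6, 195 and 190 CPM. Both were low in KO library 2 alone. Irak3, a brake on TLR signalling, had 208, 302, 180 and 165 CPM (0.57 ± 0.24, adjusted p = 0.599).

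Feedback inhibitors (24 tested, median 0.11) and the inflammasome and IL-1 family (19 tested, median 0.14) each had list means nearer WT in KO library 1, −0.03 and 0.12, than in KO library 2, 0.35 and 0.53. Il10 had 43.7, 93.9, 46.1 and 47.8 CPM. Il1rn, the IL-1 receptor antagonist, had 2847, 7304, 2847 and 2494 CPM. KO library 2 was about 2 times the others for Il10 and more for Il1rn, and KO library 1 was at the WT level.

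Within the IL-1 family Il1a had 429, 1944, 445 and 434 CPM and Il1b had 505, 1161, 527 and 464 CPM. The sensor Nlrp3 had 168, 422, 166 and 168 CPM. In each, KO library 2 alone was high. Il33, an alarmin, had 2.50, 8.62, 1.5 and 0.407 CPM, above WT in both KO libraries (log2 fold change 2.53 ± 0.94, edgeR adjusted p = 0.599).

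In arginine and itaconate metabolism, 0 of 18 passed (11 positive, median 0.17), and the list means were 0.06 and 0.34 above WT in KO libraries 1 and 2. Slc7a2, the transporter that supplies arginine to Nos2, had 2469, 7517, 2567 and 2230 CPM, high in KO library 2 only. Arg1, which turns arginine to urea and ornithine, had 564, 152, 498 and 383 CPM, with the KO libraries on either side of WT. M2 markers, the genes of the IL-4 response, numbered 25 tested, with 12 positive, 11 negative and a median of 0.00. Their list means were 0.15 above WT in KO library 1 and −0.14 from it in KO library 2.

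**Figure D3:**
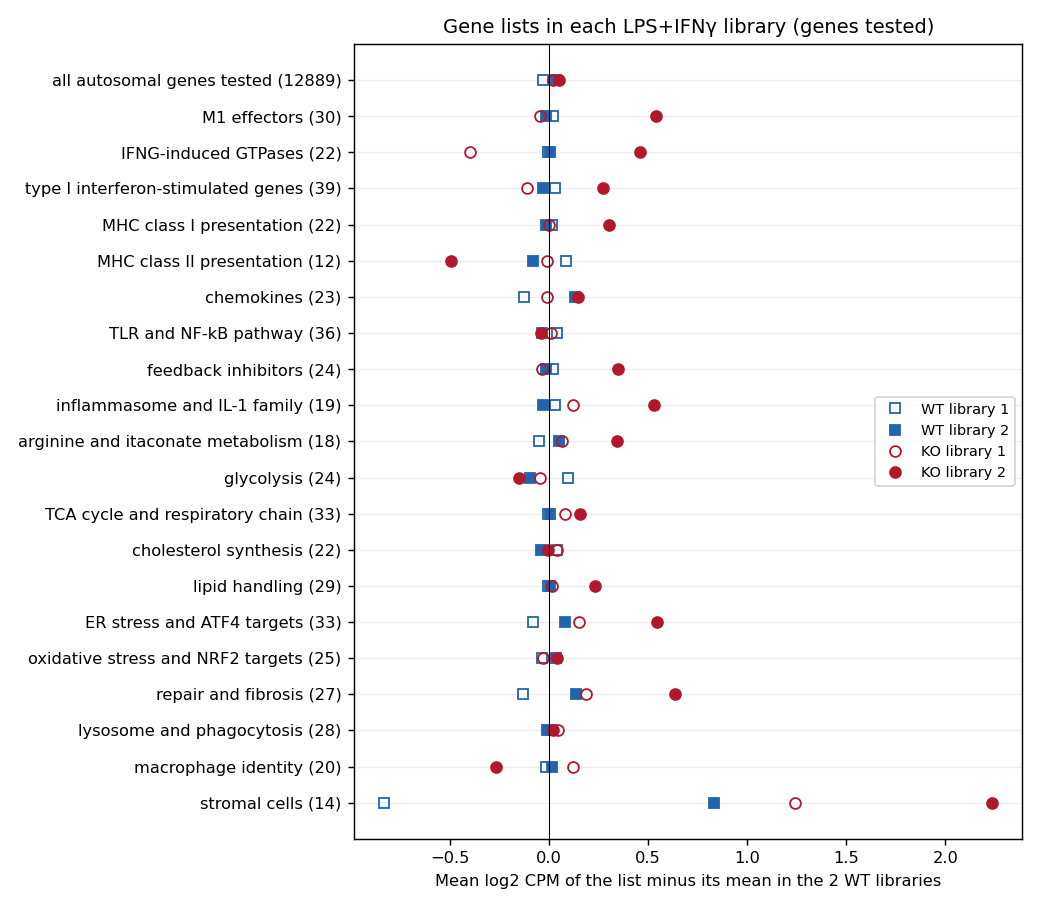
Mean log2 CPM of each gene list in each LPS+IFNγ library, minus the mean of that list in the 2 WT libraries, with the number of genes tested in brackets (KO as circles, WT as squares, library 1 open and library 2 filled). KO library 1 lies close to the WT libraries for most response lists and below them for the IFNγ-induced GTPases, where KO library 2 lies above.

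No gene of the metabolic lists passed. Glycolysis had 17 of 24 negative (median −0.15). WT library 1 was the highest of the 4 for 16 of the 24, and for 2673 of all 12889 autosomal genes. List means were −0.05 and −0.15 from WT in KO libraries 1 and 2, and WT library 2 lay −0.19 from WT library 1. In that list Slc16a1, the lactate transporter MCT1, had 19.5, 48.7, 16.8 and 18.7 CPM. The TCA cycle and respiratory chain had 25 of 33 positive (median 0.14), with 6 higher and 0 lower at an unadjusted p below 0.05 and 0 that passed. Of all autosomal genes 51.6% were positive, with 4.84% higher and 3.33% lower at that p. The list means of the TCA cycle and respiratory chain were 0.08 and 0.15 above WT in KO libraries 1 and 2. Idh2, mitochondrial isocitrate dehydrogenase, had 10.1, 12.3, 8.72 and 6.84 CPM (log2 fold change 0.52 ± 0.14, edgeR adjusted p = 0.564), Cycs, cytochrome c, had 78.0, 114, 76.0 and 77.6 CPM, and Sdha was at 199, 199, 191 and 191 CPM.

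Cholesterol synthesis had a median of 0.04 over 22 genes. Lipid handling had a median of 0.00 over 29 genes. In that list Abca1, the exporter of cholesterol, had 620, 775, 606 and 549 CPM. Ch25h, which makes 25-hydroxycholesterol, had 10.5, 214, 15.3 and 13.7 CPM, and KO library 1 was the lowest of the 4.

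ER stress and ATF4 target genes were positive in 30 of 33, with a median of 0.31, 9 higher and 1 lower at an unadjusted p below 0.05, and 0 that passed. Over all autosomal genes 51.6% were positive, with 4.84% higher and 3.33% lower at that p. The list mean was 0.15 above WT in KO library 1 and 0.55 in KO library 2, and the WT libraries differed by 0.16. The serine synthesis enzymes Psat1 (21.7, 44.6, 17.1 and 16.5 CPM) and Phgdh (1.01, 4.45, 0.409 and 1.08 CPM) were highest in KO library 2. Shmt2, which moves 1-carbon units in mitochondria, had 11.3, 12.8, 8.31 and 7.86 CPM (log2 fold change 0.57 ± 0.13, edgeR adjusted p = 0.539). The ER chaperone Hspa5 (BiP) had 898, 1326, 908 and 944 CPM, at the WT level in KO library 1.

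Oxidative stress and NRF2 target genes had a median of −0.01 over 25 genes. Sod2, mitochondrial superoxide dismutase, had 1563, 2660, 1377 and 1405 CPM. Hmox1, heme oxygenase 1, had 6769, 4793, 6310 and 6238 CPM, and Gpx1, a glutathione peroxidase, had 302, 91.4, 322 and 311 CPM. In all 3 it was KO library 2 that lay away from the rest.

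Cell cycle genes had a median of −0.03 over 35 genes, and Mki67, a mark of dividing cells, was at 8.78, 13.4, 7.70 and 8.88 CPM. Immediate early genes had a median of 0.14 over 20, where Egr1 had 5.60, 19.4, 5.18 and 4.34 CPM and Fos had 44.4, 33, 47.5 and 44.7 CPM. Cell death genes (27 tested, median 0.04) included the BH3-only gene Pmaip1, at 12.3, 12.1, 17.5 and 17.4 CPM with close libraries in each genotype (log2 fold change −0.52 ± 0.22, edgeR adjusted p = 0.596). Lysosome and phagocytosis genes (28 tested) had a median of 0.03, and paraspeckle components (16 tested) one of −0.04.

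Repair and fibrosis genes had 19 of 27 positive (median 0.34), with 5 higher and 3 lower at an unadjusted p below 0.05. The shares over all autosomal genes were 51.6% positive, 4.84% higher and 3.33% lower. Timp3, an inhibitor of matrix proteases, had 12.5, 40.8, 1.16 and 5.76 CPM (log2 fold change 2.93 ± 0.94, edgeR adjusted p = 0.564). Fn1, fibronectin, had 53.5, 190, 14 and 42.4 CPM, and Spp1, osteopontin, had 368, 757, 316 and 380 CPM. KO library 2 was the highest in each, and WT library 1 the lowest.

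Markers of stromal cells were also higher in KO libraries. All 14 tested of 16 were positive (median 1.31, 2 higher at an unadjusted p below 0.05, 0 that passed). Of all autosomal genes 51.6% were positive and 4.84% were higher at that p. KO library 2 was the highest for 13 of the 14, and WT library 1 the lowest for 13. Over all 12889 autosomal genes these counts were 4838 and 2525. List means were 1.24 and 2.24 above WT in KO libraries 1 and 2, and the WT libraries themselves differed by 1.66. The summed level of the stromal markers was 392 and 963 CPM in KO libraries and 71.7 and 279 CPM in WT libraries, with Thy1 at 0 in KO library 1 and Lum at 0 in WT library 1. Col1a1, a chain of type I collagen, had 102, 283, 14.6 and 57.5 CPM, Postn, periostin, had 2.63, 17, 0.341 and 0.542 CPM, and Acta2, smooth muscle actin, had 5.20, 29.9, 1.84 and 3.93 CPM. In bulk RNA fewer cells of a type and less RNA per cell cannot be told apart, and the part of stromal RNA in the repair list was not tested. KO against WT medians for the stromal list were 0.90 in control and 1.51 after IL-4.

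Genes of the macrophage identity list (20 tested, 9 positive, median −0.08) had 0 that passed. KO library 2 was the lowest of the 4 for 13 of the 20, and for 4519 of all 12889 autosomal genes. Its list mean was −0.27 from WT, and that of KO library 1 was 0.12 above WT. The part of this in the other results was not tested.

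Marker lists of other cell types had 0 genes that passed. The 13 granulocyte genes summed to 423 and 709 CPM in KO and 335 and 308 CPM in WT libraries, with 4 to 7 of them at 0. Of 7 tested, 5 were positive (median 0.65), against 51.6% of all autosomal genes. Ly6g and Elane had 0 counts in all 4 libraries and S100a9 was at most 0.81 CPM, while S100a8 had 38, 220, 24.8 and 25.2 CPM. Most of each sum thus came from members not named here. The 9 B cell genes summed to 5.74 and 1.65 CPM in KO and 6.61 and 46.8 CPM in WT libraries. In WT library 2 Ighm was at 33.5 CPM and Igkc at 10.2 CPM, against at most 3.54 and 1.63 CPM in the other 3. Of 12 T and NK cell genes, 7 to 10 were at 0, Cd3e and Ncr1 in every library, and the sum of 57.7 to 84.2 CPM was nearly all Il7r, the IL-7 receptor (56.1, 83.6, 78.0 and 69.2 CPM). The 6 endothelial genes summed to 27 and 9.29 CPM in KO and 33.9 and 32.5 CPM in WT libraries, with 3 of them at 0 in all. Kdr, a VEGF receptor, had 5.20, 4.36, 9.40 and 12.1 CPM (edgeR adjusted p = 0.632). The 10 dendritic cell genes summed to 1097 to 1259 CPM, most of it from Bst2, an interferon-induced gene (1148, 1037, 1210 and 1140 CPM), while Siglech and Cd209a were at 0 in every library and 2 to 4 of the list in each. The 9 osteoclast genes summed to 217 to 250 CPM, with Acp5, an acid phosphatase that macrophages also make, at 116, 112, 119 and 117 CPM, and 0 or 1 of the list at 0. The 8 mast cell and basophil genes summed to 4.90 to 10.5 CPM, with Cpa3, Fcer1a and Ms4a2 at 0 in every library. The 8 autosomal erythroid and megakaryocyte genes summed to 36 to 59 CPM, with Hbb-bs at 0 in every library.

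The genes on which KO library 2 differed most from the other 3 libraries were chosen after their values were seen. Ch25h, described above, had the highest ratio. Il19, a cytokine of the IL-10 family, had 4.19, 52.4, 2.52 and 2.44 CPM, and Car2, carbonic anhydrase 2, had 5.20, 40.8, 4.56 and 4.81 CPM. Slc40a1, the iron exporter ferroportin, had 91.9, 21.3, 78.3 and 102 CPM, and Hacd4, an enzyme of long-chain fatty acid elongation, had 133, 38.3, 137 and 141 CPM. With KO library 1 left out, so that KO library 2 stood alone and was assumed to vary like the other groups, edgeR called 508 autosomal genes, 303 higher and 205 lower. With KO library 2 left out edgeR called only lower genes, Cndp2 (log2 fold change −3.23), Gdf3 (−1.54) and Gemin4 (−9.11). Gemin4 was named after its value was seen. It was called in no fit that kept KO library 2, so its call rests on KO library 1 alone.

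**Figure D4:**
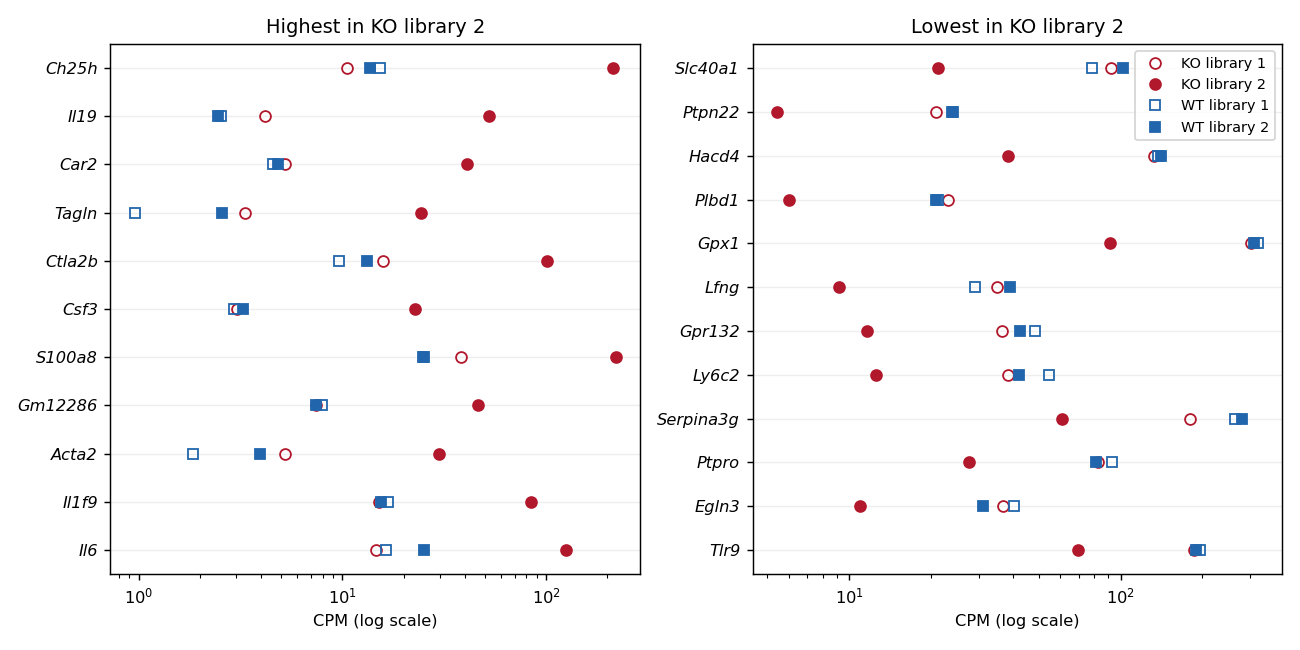
CPM (log axis) in the 4 LPS+IFNγ libraries for genes furthest above (left) or below (right) the other 3 libraries in KO library 2, with KO as circles, WT as squares, library 1 open and library 2 filled. KO library 2 lies away from the other 3, as for Ch25h at 214 CPM against 10.5 CPM in KO library 1, and KO library 1 is itself above both WT libraries for some genes, such as S100a8 at 38 CPM against 24.8 and 25.2 CPM. Pgam1-ps2, with 9.05 and 50.7 CPM in KO and 0 counts in WT libraries, cannot be drawn on the log axis.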

How the data were processed

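Directional NEBNext Ultra II libraries were made from RNA isolated with an innuPREP kit, per the labels' protocols. The deposited table holds estimated counts per Ensembl gene, and the authors used Salmon 1.10.2, DESeq2 1.45.3, R 4.4.1 and FastQC 0.11.9 with build GRCm39, per the submitters' processing notes, which give no roles. All deposited values were whole numbers and were used as they stood. Which transcript annotation was used, and whether counts are by strand, is not given in the sources used here, so overlapping, antisense and near-identical genes have uncertain counts. Chromosomes and distances are GRCm38 (GENCODE M21, 92.0% of identifiers) and were not converted.

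In R 4.3.3, edgeR 4.0.16 (filterByExpr, TMM, quasi-likelihood F tests on group means) used the 12 libraries together, with 6 residual degrees of freedom. Tests were two-sided, p-values were adjusted (Benjamini-Hochberg) over all 13525 genes tested and called below 0.05, and calls were counted on autosomes. SEs of log2 fold changes came from the F statistics. The fit was also run on simulated counts, drawn with the same spread in every group and no library apart from the rest. That run does not cover a library such as KO library 2. DESeq2 1.42.0, other filters and scalings, a replicate block, and leaving out libraries were alternatives. Named genes were those called, the 15 of smallest p in each direction with at least 1 CPM and no overlap, and the first 2 and the 3 largest members by absolute log2 fold change of each of 40 lists, of which the text names a part, and some genes that met this rule are not reported here. Genes and lists were chosen with earlier results of these data known.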

Additional observations from a re-analysis of the deposited data

How the results depend on the processing

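Autosomal genes called in KO against WT after LPS+IFNγ numbered 3 in the reported fit, and also with DESeq2 size factors, with a mean of at least 1 CPM as the filter, and with autosomal genes alone. DESeq2 called 22, edgeR without a low-count filter 63 of 21284 tested, and a fit of the 4 libraries alone 1, Cndp2. For the change of the KO effect against control and against IL-4, both 0 in the reported fit, DESeq2 called 5 and 5, and edgeR without the filter 7 and 3. With 1 library left out the 3 counts ran from 2 to 508, 0 to 31 and 0 to 107, each highest without KO library 1, and the cause was not tested. Cndp2 and Gdf3 were called in each of those 4 fits. The replicate block, with the library number as a term, called 15 genes (12 higher, 3 lower), Timp3 and 5 of the 14 stromal markers, Col1a1, Col1a2, Postn, Sparc and Acta2, among them, and 0 for both changes. Library numbers were not taken as pairs, since the labels do not say that they pair samples. The correlation of library 2 minus library 1 across genes was positive in all 15 pairs of groups. It was over 0.1 in 14 of them, 0.131 between the LPS+IFNγ groups, and 0.0464 in the other. Whether same-numbered libraries share a batch or culture was not tested. The median log2 fold change of all autosomal genes stayed between 0 and 0.016 in the settings run.

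Of 92 genes recomputed singly, 18 changed sign when 1 library was left out and in no other setting. Without KO library 2, its lowest value, the log2 fold change was −0.95 for Il12b (highest 1.81), −0.51 for Il6 (highest 2.59), −0.28 for Cxcl5 (highest 2.84), −0.10 for Il10 (highest 1.0), −0.035 for Il1a (highest 2.14) and −0.46 for Ch25h (highest 3.88). The same held for Gbp2 (−0.079 to 0.59), Irgm1 (−0.10 to 0.26) and Hspa5 (−0.043 to 0.52). It was the highest value for Arg1 (−1.54 to 0.36), Hmox1 (−0.39 to 0.11), Adgre1 (−0.36 to 0.15), Csf1r (−0.38 to 0.13), Slc40a1 (−2.08 to 0.030) and Hgf (−0.49 to 0.27). Nos2 ran from −0.067 to 0.19, Ptpn6 from −0.0077 to 0.11 and Ifit1 from −0.32 to 0.19.

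With 2 libraries a group, and KO library 2 the shallowest, a gene near 1 CPM rests on few counts, and leaving out a library leaves 1 in its group, assumed to vary like the others.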
